A study of Homo sapiens with 6 samples.

Results

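The 10 genes described here are SNAI2 and the genes it is usually discussed with in epithelial-mesenchymal transition: the transcription factors SNAI1, SNAI2, SNAI3, TWIST1, TWIST2, ZEB1 and ZEB2, the cadherins CDH1 and CDH2, and the intermediate filament gene VIM. They are 10 of 19775 genes measured, and were found as the probe sets (groups of short oligonucleotides that read 1 transcript together) with exactly 1 gene symbol in the platform annotation and a symbol on this list. That gave 21 probe sets of 54613, and 0 probe sets with several symbols held a member. The list was chosen by measured values, since the differences between SDC1 siRNA and control siRNA on these same 6 arrays, that of SNAI2 among them, were known when it was made. The differences between the groups are therefore given for these genes as a description, with no test.

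By their labels the samples were Caco-2. This is an established line from a human colorectal adenocarcinoma, whose cells grow as a polarized sheet much like intestinal epithelium. All cells had been transfected, 3 samples with SDC1 siRNA (a small interfering RNA that targets SDC1) and 3 with a negative control siRNA. SDC1 encodes syndecan-1, a heparan sulfate proteoglycan of epithelial cell surfaces, and the comparison asks which transcripts depend on it. The labels do not state the sequence or dose of the siRNAs or the time after transfection. They number the replicates without a word on separate cultures, so p-values measure only array-to-array spread, which may be technical.

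Epithelial-mesenchymal transition is the program by which epithelial cells loosen their junctions and take on migratory features. Its repressors bind E-boxes, short palindrome-like DNA elements, and silence epithelial genes such as CDH1. SNAI and ZEB proteins are zinc finger factors, and TWIST proteins are basic helix-loop-helix factors that pair with E proteins such as TCF4. A fall in E-cadherin (CDH1) with a gain of N-cadherin (CDH2) is known as the cadherin switch, and vimentin (VIM) is the filament protein of mesenchymal cells. In colorectal cells the SNAI and ZEB factors are known above all for repressing E-cadherin.

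SNAI2, the Slug repressor, stood far apart from the rest of this group, and VIM was next. SNAI2 was lower with SDC1 siRNA by 0.89 on the log2 scale (1.85-fold), and VIM by 0.46 (1.37-fold). The differences of the other 8 genes lay between -0.31 for TWIST1 and 0.24 for SNAI3, and CDH1, the classic target of these repressors, was at -0.003. Of the 7 transcription factors, 4 were below 0 and 3 above. Across the 10 genes 6 were below 0 and 4 above. Their median was -0.03, beside a median of 0.01 and 47.9% of genes below 0 over all genes. In size, the median absolute difference was 0.10 in these genes and 0.08 over all genes.

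Each value is a log2 signal after the median of its probe set across the 6 arrays had been taken off. The values show which arrays are higher or lower for a gene, but they hold no absolute level. Only a coarse step class could be read for the original log2 signal, from the precision in which it had been stored: 8 to 16, 4 to 8 or below 4. Of the 10 genes, 2 (CDH1 and VIM) had a probe set in the class 8 to 16, and 4 (SNAI1, SNAI2, ZEB1 and CDH2) had their brightest one at 4 to 8. SNAI3, TWIST1, TWIST2 and ZEB2 had every probe set below 4. Over all genes the shares were 30.2%, 45.9% and 23.9%. A gene's value is the average of those of its probe sets that fall in its brightest class.

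Over the whole series the median absolute difference between a pair of arrays, over all genes, ran from 0.09 to 0.15. Control replicate 2 stood apart, with 0.122 to 0.149 in its pairs and at most 0.115 in all others. It also had the lowest weight in the alternative with array weights, 0.47 against up to 1.80. SDC1, the target, was at 0.37, 0.35 and 0.35 in control replicates 1, 2 and 3 and at -0.50, -0.62 and -0.34 in SDC1 siRNA replicates 1, 2 and 3. All SDC1 siRNA arrays lay below all control arrays, with a difference of -0.84 ± 0.08 (standard error; limma adjusted p = 0.0238 over all genes, and p = 0.1 in an exact two-sided permutation test, the smallest value 3 arrays against 3 allow). With any single array left out, that adjusted p was 0.0615 to 0.326 and the call was lost. Among 10 markers of intestinal epithelium, EPCAM, KRT8, KRT18 and CDX1 were in the class 8 to 16, 4 more at 4 to 8, and CDH17 and KRT20 below 4. Of 10 fibroblast markers, 2 (COL1A1 and COL1A2) were in the class 8 to 16, 6 at 4 to 8 and 2 below 4. Of 6 endothelial markers, 1 (VWF) was in the class 8 to 16, 3 at 4 to 8 and 2 below 4. In the lists described below, 12 of 29 measured mesenchymal genes and 18 of 26 measured epithelial genes were in the class 8 to 16. The classes are coarse and centred values hold no level, so the cell type could not be checked more closely. The name Caco-2 rests on the labels, and these classes do not settle it.

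In the limma fit over all genes, which adjusted p-values by Benjamini-Hochberg, 0 of the 10 genes were called at an adjusted p of 0.05. Over all genes 5 of 19775 were called, a share of 0.0253%. Tested as single probe sets, 0 of the 21 were called, as were 0 of 54613 in all (0%), with 4547 at an unadjusted p under 0.05. The called genes were 3 lower (0.0152%) and 2 higher (0.0101%). In 2 alternatives, array weights (0.197% of all genes called) and a filter that kept genes of class 4 or higher (0.0731% called), SNAI2 was the 1 member called. Since this comparison chose the members, nothing is read from these counts.

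**Figure D1:**
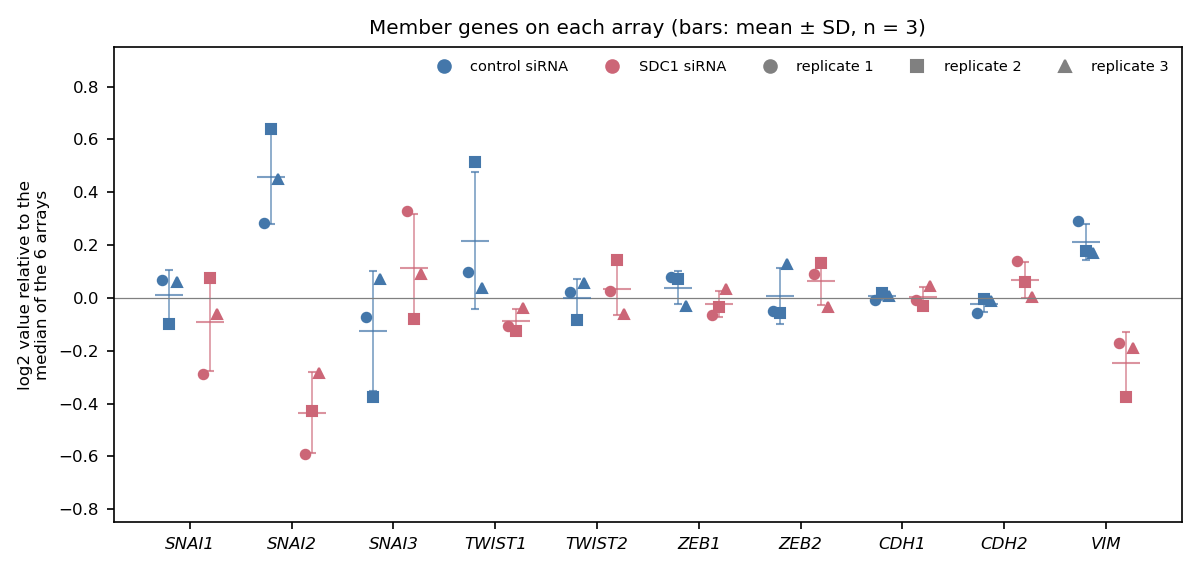
Values of the 10 genes on each of the 6 arrays, as log2 value relative to the median of the 6 arrays, with symbols for the replicates and bars for mean ± SD (n = 3 per group). The control arrays of SNAI2 sit between 0.28 and 0.64 and its SDC1 siRNA arrays between -0.59 and -0.28, while the 6 arrays of CDH1 sit between -0.03 and 0.05.

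SNAI2 was read by 1 probe set, 213139_at, in the class 4 to 8. Its relative log2 value was 0.28, 0.64 and 0.45 in control replicates 1, 2 and 3 and -0.59, -0.43 and -0.28 in SDC1 siRNA replicates 1, 2 and 3. Every SDC1 siRNA array lay below every control array, with a gap of 0.57 between the nearest pair. The means were 0.46 ± 0.18 (SD, n = 3) and -0.43 ± 0.15 (SD, n = 3), and the difference was -0.89 ± 0.11 (standard error). By size this difference ranked 3 of 19775 genes, and 0.0101% of genes had a larger one. It was -0.80 without control replicate 2, the highest control array, and -0.81 without SDC1 siRNA replicate 1, the lowest of its group. In bulk RNA such as this, fewer cells that express a gene and less RNA per cell cannot be told apart.

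Its paralog SNAI1, the Snail repressor, was read by 1 probe set in the same class and did not share this pattern. It was at 0.07, -0.10 and 0.06 in control replicates 1, 2 and 3 and at -0.29, 0.07 and -0.06 in SDC1 siRNA replicates 1, 2 and 3. The groups overlapped, since SDC1 siRNA replicate 2 was the highest of the 6 arrays. The difference was -0.10 ± 0.10 (standard error), and -0.004 without SDC1 siRNA replicate 1.

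SNAI3, the third member of the family, went the other way in its mean but had the widest spread. Its 1 probe set, in the class below 4, was at -0.07, -0.37 and 0.07 in the control arrays and at 0.33, -0.08 and 0.09 in the SDC1 siRNA arrays, in the order of their replicates. The groups overlapped, and the difference of 0.24 ± 0.14 (standard error) was about as large as the pooled SD of 0.22. It was 0.11 without control replicate 2 and 0.13 without SDC1 siRNA replicate 1. The antisense gene SNAI3-AS1, looked up after the values were seen, was at 0.18 ± 0.08.

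TWIST1, a helix-loop-helix factor of mesoderm and neural crest, was also lower with SDC1 siRNA without overlap, with 1 control array far above the others. Its 1 probe set, in the class below 4, was at 0.10, 0.51 and 0.04 in control replicates 1, 2 and 3 and at -0.11, -0.12 and -0.04 in SDC1 siRNA replicates 1, 2 and 3. Control replicate 2 stood high, and the gap between the nearest arrays of the groups was 0.07. The difference was -0.31 ± 0.12 (standard error), and -0.16 without control replicate 2. The same array was the highest of the 6 for SNAI2.

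TWIST2, its close relative, had 2 probe sets below 4 that pointed to opposite sides, -0.08 ± 0.13 for 1554163_at and 0.16 ± 0.13 for 229404_at. Their mean gave 0.04 ± 0.08, with overlapping groups. Control values ran from -0.08 to 0.06 and SDC1 siRNA values from -0.06 to 0.14.

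ZEB1 and ZEB2, the zinc finger and homeodomain repressors that the miR-200 family holds down in epithelial cells, showed small differences of mixed sign. ZEB1 was at 0.08, 0.07 and -0.03 in control replicates 1, 2 and 3 and at -0.06, -0.04 and 0.03 in SDC1 siRNA replicates 1, 2 and 3, from its 1 probe set at 4 to 8. The groups overlapped and the difference was -0.06 ± 0.07. Its 3 dimmer probe sets were at 0.00, -0.10 and 0.16, and the mean of all 4 was 0.001.

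ZEB2 had 5 probe sets, all below 4. Of these 233031_at was higher in every SDC1 siRNA array (0.25 ± 0.10), 233033_at was at -0.15 ± 0.10 with overlapping groups, and the other 3 lay between 0.02 and 0.10. The gene's mean was 0.06 ± 0.08, with control arrays from -0.06 to 0.13 and SDC1 siRNA arrays from -0.04 to 0.13.

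The cadherin pair showed little. CDH1 was at -0.009, 0.018 and 0.009 in control replicates 1, 2 and 3 and at -0.009, -0.030 and 0.046 in SDC1 siRNA replicates 1, 2 and 3, from its probe set in the class 8 to 16. Its arrays were the tightest of the 10 genes, with a pooled SD of 0.03, and the groups overlapped. The difference was -0.003 ± 0.064 (standard error), and 97.7% of all genes had a larger one. The dimmer CDH1 probe set, at 4 to 8, was at 0.08 ± 0.10.

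CDH2 was at -0.057, -0.003 and -0.013 in control replicates 1, 2 and 3 and at 0.138, 0.061 and 0.003 in SDC1 siRNA replicates 1, 2 and 3. The groups did not overlap, but the nearest arrays were only 0.005 apart. The difference was 0.09 ± 0.07 from its brighter probe set, 203441_s_at, and the dimmer one, 203440_at, was at -0.04 ± 0.09.

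VIM was lower in every SDC1 siRNA array in the brighter of its 2 probe sets. That probe set, 201426_s_at, was at 0.29, 0.18 and 0.17 in control replicates 1, 2 and 3 and at -0.17, -0.38 and -0.19 in SDC1 siRNA replicates 1, 2 and 3. The groups were 0.34 apart at their nearest arrays. The means were 0.21 ± 0.07 (SD, n = 3) and -0.24 ± 0.11 (SD, n = 3), and the difference of -0.46 ± 0.08 (standard error) ranked 100 of 19775 by size. The second probe set, 1555938_x_at, is in the class below 4 and of a type that can match other transcripts. It was at -0.10 ± 0.10 with overlapping groups, and the mean of both was -0.28.

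Counted over genes, 3 members (SNAI2, TWIST1 and VIM) were lower and 1 (CDH2) higher with groups that did not overlap. Over all genes 8.47% were lower and 8.26% higher in that way, or 16.7% in either direction. Among the 21 probe sets, 11 were below 0 and 10 above, and 3 were lower and 2 higher without overlap, against 7.42% of all probe sets lower, 7.06% higher and 14.5% in either direction. Since this comparison chose the members, these counts are a description.

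**Figure D2:**
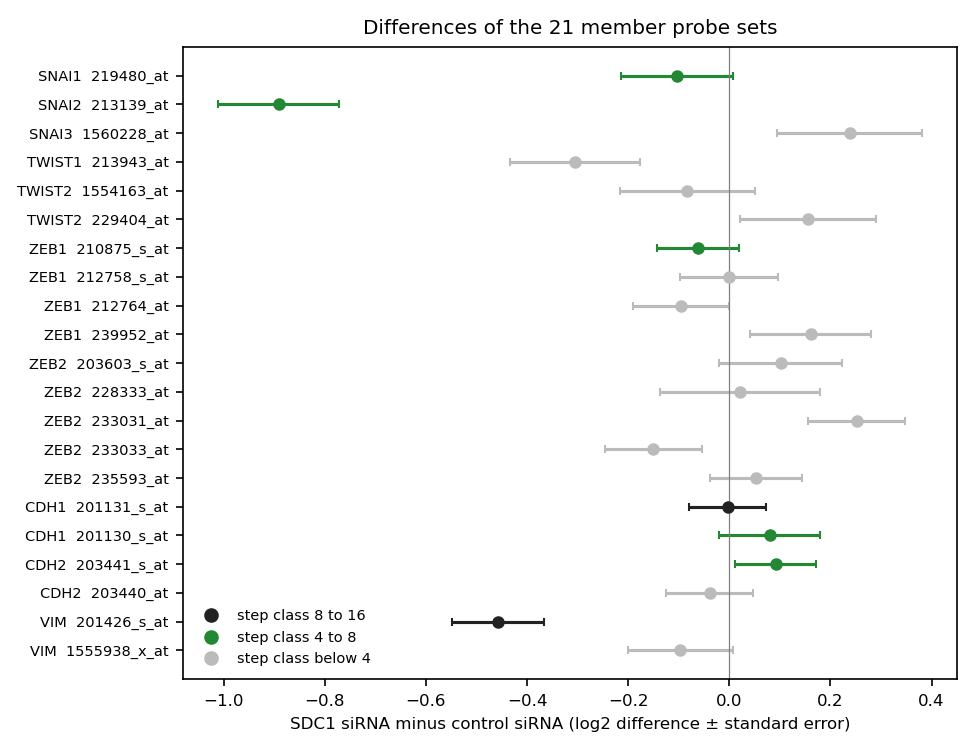
Differences of the 21 probe sets, SDC1 siRNA minus control siRNA, in log2 with standard errors, coloured by step class. SNAI2 (-0.89) and the bright VIM probe set (-0.46) lie to the left of all others, and the 14 probe sets below 4 range from -0.31 to 0.25.

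The arrays that were high for SNAI2 were not the same ones for VIM. Within the control arrays SNAI2 was highest in replicate 2 and VIM in replicate 1, and within the SDC1 siRNA arrays SNAI2 was lowest in replicate 1 and VIM in replicate 2. Pearson's r of the deviations from the group means over the 6 arrays was -0.38 between SNAI2 and VIM, 0.69 between SNAI2 and TWIST1, 0.67 between SNAI2 and CDH1 and 0.39 between SNAI2 and ZEB1. It was 0.06 for SNAI1, -0.65 for SNAI3, -0.55 for TWIST2, -0.33 for ZEB2 and -0.32 for CDH2. Control replicate 2, the array furthest from the others, was the highest of the 6 for both SNAI2 and TWIST1. These values of r are descriptions over 6 arrays that share their RNA between genes.

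Promoters were compared for the E-box forms CAGGTG and CACCTG, which are each other's reverse complement and are the form that SNAI and ZEB zinc fingers are known to prefer. RefSeq windows (GRCh38.p14, 250 bases before to 50 after a gene start) were used for 5 of the 10 genes: TWIST2, ZEB1, ZEB2, CDH2 and VIM. No window of SNAI2 itself was among those compared. Of their 12 windows 2 held either form, both of them among the 7 windows of ZEB1, beside 20.6% of 35116 windows over all genes. The ZEB1 window with 3 matches is shown beside the VIM window, which has none. At least 3 matches were reached by 0.635% of all single windows. That share is not one for a gene, since this window was picked as the richest of the 7 of ZEB1. The pair was chosen by hand because ZEB1 was near 0 and VIM was lower while SNAI2 was lower. The 250 bases before the start are given 5′ to 3′ on the plus strand, with the matches in capitals. The ZEB1 stretch is chr10:31318966-31319215 and the VIM stretch chr10:17227991-17228240.
ZEB1: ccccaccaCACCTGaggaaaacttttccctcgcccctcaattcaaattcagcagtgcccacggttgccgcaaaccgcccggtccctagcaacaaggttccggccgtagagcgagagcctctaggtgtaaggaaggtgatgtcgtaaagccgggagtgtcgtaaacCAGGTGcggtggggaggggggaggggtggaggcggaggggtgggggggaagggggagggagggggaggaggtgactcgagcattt
VIM: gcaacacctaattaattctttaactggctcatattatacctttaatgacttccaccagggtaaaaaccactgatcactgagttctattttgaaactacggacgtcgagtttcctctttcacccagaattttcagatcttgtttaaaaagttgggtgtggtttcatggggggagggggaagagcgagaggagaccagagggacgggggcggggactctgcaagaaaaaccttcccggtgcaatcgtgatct

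The ZEB1 matches begin at -242 and -85 in the stretch shown and at 34 after the start, outside it. The other ZEB1 window with a match has 1, at -57. A match is a description of the letters and not a binding site, and a window without one says nothing about the factor.

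Genes around these members were taken from 8 lists covering 178 genes, of which 163 were measured. Of these, 0 were called in the limma fit (5 of 19775 over all genes), 25 had an unadjusted p under 0.05 (2100 over all genes, or 10.6%), 100 were above 0 and 63 below, and the median difference was 0.02. The lowest limma adjusted p was 0.096, for FN1. The lists were drawn up with earlier results of these data known.

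Among 17 measured factors linked to the transition besides the members, 10 were above 0 and 7 below. Not all of them promote it, since the list also held the helix-loop-helix inhibitors ID1, ID2 and ID3. The median of the 17 was 0.01, and between -0.04 and 0.02 with 1 array left out. The leading one was TCF4, the E protein E2-2 that pairs with TWIST and can itself repress CDH1. TCF4 was at 0.28, 0.12 and 0.16 in control replicates 1, 2 and 3 and at -0.18, -0.26 and -0.13 in SDC1 siRNA replicates 1, 2 and 3. All SDC1 siRNA arrays lay below all control arrays, and the difference was -0.37 ± 0.07 (limma adjusted p = 0.159 over all genes). It was seen in all 8 TCF4 probe sets, which lay between -0.38 and -0.15. KLF8, a Krüppel-like repressor of CDH1, was at -0.23 ± 0.08 (limma adjusted p = 0.379). The related E proteins TCF3 and TCF12 were at 0.01 ± 0.07 and 0.02 ± 0.07. They and the next 3 genes were picked after their values were seen. WWTR1, the TAZ coactivator, was at -0.24 ± 0.09 and the helix-loop-helix inhibitor ID2 at -0.20 ± 0.10, both with groups that did not overlap (limma adjusted p = 0.412 and 0.544). WWTR1 was read from 1 of its 3 probe sets and ID2 from 1 of its 2. ID2 was at 0.37 in control replicate 2 and at 0.04 and 0.01 in control replicates 1 and 3. SOX4, a high-mobility-group factor, was at 0.11 ± 0.07 (limma adjusted p = 0.609). It was the gene of this list that was higher without overlap, beside 4 that were lower (TCF4, KLF8, WWTR1 and ID2). Over all genes those shares were 8.26% and 8.47%.

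Of 28 measured partners of the SNAI factors, which act as corepressors or set protein stability, 15 were above 0 and 13 below (median 0.01) and 0 were called. DNMT1, the maintenance DNA methyltransferase, was at 0.27 ± 0.07 (limma adjusted p = 0.261). CSNK1A1, casein kinase 1 alpha, was at -0.21 ± 0.06 (limma adjusted p = 0.318), but its 13 probe sets disagreed. Of these 3 were below -0.5, down to -0.61, and the other 10 lay between -0.29 and 0.13. In all, 7 of the 13 were below 0, and the mean of all 13 was -0.16.

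Of 26 inducers and signalling genes, 15 were above 0 and 11 below (median 0.01), with 0 called. TGFBR2, the type II TGF-beta receptor, was at 0.18, 0.41 and 0.14 in control replicates 1, 2 and 3 and at -0.40, -0.15 and -0.14 in SDC1 siRNA replicates 1, 2 and 3, without overlap (difference -0.47 ± 0.10, limma adjusted p = 0.178). Its dim probe set was at 0.14, and the mean of both was -0.17. LEF1, a nuclear partner of beta-catenin, was at -0.38 ± 0.09 (limma adjusted p = 0.191), with its 3 probe sets between -0.59 and -0.20.

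Among 14 measured guardians of the epithelial state, 9 were above 0 and 5 below. Their median was 0.05, and 0 were called. FOXA1, a pioneer factor, was at 0.22 ± 0.12 from dim probe sets. GRHL2, an activator of CDH1, was at -0.14 ± 0.08. Both had overlapping groups (limma adjusted p = 0.546 and 0.618). Without SDC1 siRNA replicate 2 they were at 0.12 and -0.07, and FOXA1 was at 0.14 without control replicate 2. Of 26 measured epithelial genes that the program represses, 17 were above 0 and 9 below (median 0.02). Cingulin (CGN) was at -0.37 ± 0.08 (limma adjusted p = 0.168), the mean of probe sets at -0.42 and -0.33, and desmoplakin (DSP) was at 0.19 ± 0.07 (limma adjusted p = 0.387).

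Of 29 measured mesenchymal genes that the program induces, 18 were above 0 and 11 below (median 0.03), with 0 called. FN1, fibronectin, and TAGLN, an actin-binding protein, led them on the higher side, opposite to VIM. FN1 was at -0.39, -0.21 and -0.32 in control replicates 1, 2 and 3 and at 0.21, 0.27 and 0.44 in SDC1 siRNA replicates 1, 2 and 3, without overlap. The FN1 difference was 0.61 ± 0.09, from 3 probe sets of the type that can match other transcripts (limma adjusted p = 0.096, and 0.0362 with array weights). Without probe sets of types _x_at and _s_at FN1 was at -0.04. That value comes from its 2 dimmest probe sets, both below 4 (0.002 and -0.08), while its other 5 lay between 0.21 and 0.66. TAGLN was at 0.37 ± 0.07 (limma adjusted p = 0.147) from 2 probe sets of type _s_at, and at 0.08 in its dimmer probe set, the value it had without those types.

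Beside CDH1 and CDH2, 14 other cadherins and catenins were measured, with 6 above 0, 8 below and a median of -0.01. CDH5, the endothelial cadherin, was at 0.37 ± 0.12 (limma adjusted p = 0.342), with its control arrays spread from -0.52 to -0.02, and at 0.24 without control replicate 1. CDH6 was at 0.18 ± 0.10 (limma adjusted p = 0.597), from 1 of its 6 probe sets, of which 3 were below 0. It was 0.09 without control replicate 2, 0.10 without SDC1 siRNA replicate 3 and 0.06 as the mean of all 6. Of 16 other intermediate filament and associated genes, 13 were above 0 and 3 below. Their median was 0.08. LMNB1, lamin B1, was at -0.30 ± 0.15 and NES, nestin, at 0.21 ± 0.11, both with overlapping groups (limma adjusted p = 0.532 and 0.545). LMNB1 was at -0.19 without SDC1 siRNA replicate 2 and at -0.45 without replicate 3, and NES was at 0.34 without control replicate 3.

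**Figure D3:**
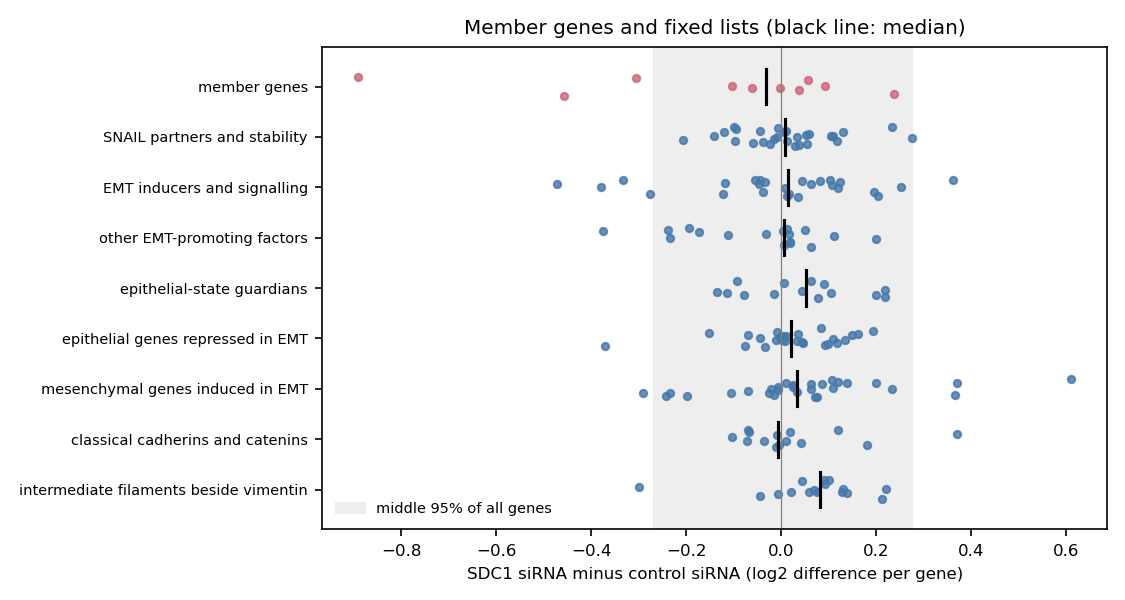
Differences per gene, SDC1 siRNA minus control siRNA in log2, for the 10 genes and the 8 lists, with a black line at each median and the middle 95% of all genes shaded (-0.27 to 0.27). SNAI2, VIM and TWIST1 lie left of the shaded range, and the medians of the lists lie between -0.01 and 0.08.

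Markers of other cell types were read beside these values. Of 10 fibroblast markers 5 were above 0 and 5 below. Furthest from 0 were LUM (-0.62), COL1A2 (0.37) and COL3A1 (-0.29), which were picked after their values were seen. LUM was read from 1 of its 2 probe sets, and was at 0.07, 0.84 and 0.36 in control replicates 1, 2 and 3. The median absolute difference of the fibroblast markers was 0.16, beside 0.08 over all genes. The mean over the markers ran from -0.03 to 0.10 in the control arrays and from -0.04 to 0.00 in the SDC1 siRNA arrays. For 10 intestinal epithelial markers 10 were above 0, with means from -0.13 to 0.00 in the control arrays and from -0.01 to 0.06 in the SDC1 siRNA arrays. The ranges overlapped in both lists. For 6 endothelial markers (4 above 0) they did not, with means from -0.12 to -0.04 in the control arrays and from 0.02 to 0.06 in the SDC1 siRNA arrays. The same held for 5 measured muscle markers (4 above 0), from -0.21 to -0.03 and from 0.01 to 0.03, while 4 measured leukocyte markers (2 above 0) overlapped, from -0.09 to 0.09 and from -0.03 to 0.10. Over the 5 lists 0 markers were called, and their part in the values of SNAI2 and VIM was not tested.

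The genes whose pattern over the 6 arrays was most like that of SNAI2, by Pearson's r over all 19775 genes, were ANKS1A (r = 0.999, difference -0.29 ± 0.07), COIL (r = 0.996, -0.21 ± 0.07), BFSP2-AS1 (r = 0.99, -0.35 ± 0.08), BNC2 (r = 0.99, -0.24 ± 0.07) and TRIM13 (r = 0.99, -0.16 ± 0.06). With 6 arrays high values are common, and 153 genes had r above 0.95. The most opposite patterns were those of STXBP2, LINC01828, PCBP4, LINC02150 and GMNC, each at r = -0.99, with differences from 0.13 to 0.43. The second, dimmer probe set of STXBP2 was at -0.10, and the mean of both was 0.08 in place of 0.26. After the group means were taken out, the most alike genes of a class of 4 or higher were RIOX2, SLC46A3, RGS16, A1BG-AS1 and CBR3, each at r between 0.995 and 0.999. Of the members, VIM had r = 0.87 to SNAI2 over the 6 arrays and TWIST1 0.82, while CDH2 had -0.76. The group difference itself enters these values.

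**Figure D4:**
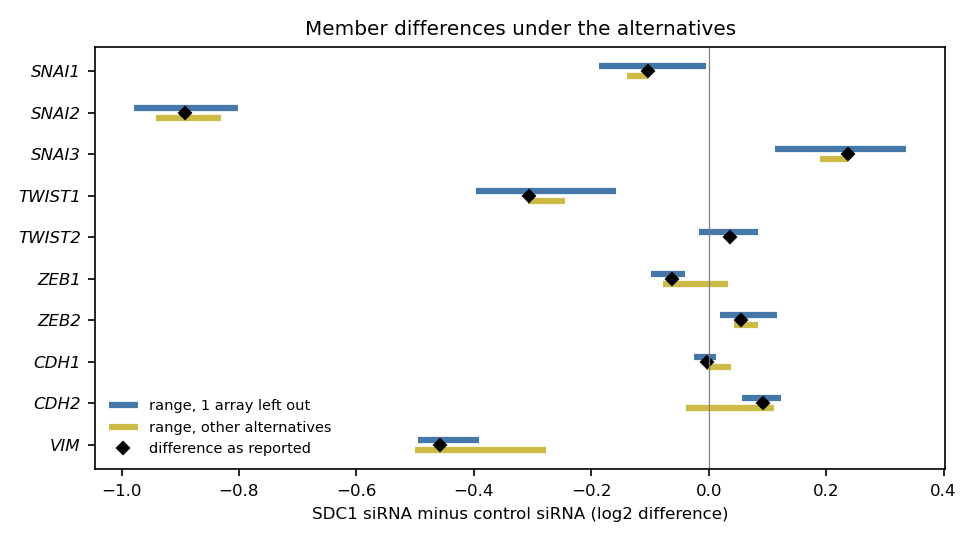
Differences of the 10 genes as reported (diamonds), with the range when 1 array is left out (blue) and the range over the other alternatives (yellow), in log2. SNAI2 stays between -0.98 and -0.80 and VIM between -0.50 and -0.28, while the ranges of TWIST2, ZEB1, CDH1 and CDH2 cross 0.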

How the data were processed

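Total RNA of 6 Caco-2 samples was read on Affymetrix arrays. The authors' deposited log2 values come from RMA, per the submitters' processing notes, with no version named. Every one of the 54675 rows had a median of 0 within 1e-06, a centring no source mentions. The log2 scale and the step classes were read from the single-precision steps of the values (9444, 24720 and 20511 probe sets at 8 to 16, 4 to 8 and below 4). Values on both sides of a bound give the lower class, and some probe sets are placed too high by chance.

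Of 54613 probe sets without controls, 41091 had 1 symbol (19775 genes), updated through RefSeq. Gene values of all 6 arrays went into limma 3.58.1 (R 4.3.3), using lmFit and eBayes with group as the only term; errors on differences are moderated standard errors. The fit was tested on simulated data. The members, lists and rules were chosen with earlier results of these data known. Named genes are the members, SDC1, 2 per list with the lowest p, and 5 per rule of likeness to SNAI2. TCF3, TCF12, WWTR1, ID2, SOX4, SNAI3-AS1, LUM, COL1A2 and COL3A1 were added after their values were seen. Alternatives were a replicate block, leaving out each array, further normalization, array weights, other probe set rules and a filter on class. Background correction and slide or scan date could not be varied.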

Additional observations from a re-analysis of the deposited data

How the results depend on the processing

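SNAI2 kept its direction under all 13 alternatives run, between -0.98 and -0.80 with any 1 array left out. So did VIM, SNAI3, ZEB2, TWIST1 and SNAI1 under each alternative that gave them a value. For SNAI2 much of this was fixed in advance. The replicate block, the other probe set rules and the class filter left its difference at -0.89. As the groups of SNAI2, VIM and TWIST1 did not overlap, leaving out or weighting arrays could not turn their signs. Averaging both VIM probe sets gave -0.28, and ZEB1, CDH1, TWIST2 and CDH2 changed sign in at least 1 setting. Without probe sets of types _x_at and _s_at, CDH1 and VIM had no value, CDH2 was at -0.04 and ZEB1 at 0.03.

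The count of called genes was 5. It was 39 with array weights, 11 among genes of class 4 or higher and 3 when all probe sets of a gene were averaged. SNAI2 was among those called with array weights and in the class filter, and 0 members were called elsewhere. This comparison chose the members, so nothing is read from these calls. With 1 array left out the count was between 0 and 1. Single probe sets gave 3 calls with array weights. Same-numbered arrays did not deviate together (r = -0.01, -0.26 and -0.11), so the numbers were not taken to pair them; with the replicate block the count was 0 and SDC1 was at -0.84 (limma adjusted p = 0.0929). SDC1 was at -0.90 (adjusted p = 0.083) after quantile normalization again, and between -0.92 and -0.78 with 1 array left out. List medians near 0 changed sign in some settings, and that of the other factors linked to the transition (0.01) was -0.02 with array weights. Without probe sets of types _x_at and _s_at, FN1 turned from 0.61 to -0.039, RGS16 from -0.26 to 0.22 and RIOX2 from -0.04 to 0.048. CSNK1A1 kept its sign there but moved from -0.21 to -0.61. With 1 array left out the difference of CBR3 lay between -0.0073 and 0.12 and that of RIOX2 between -0.092 and 0.013. The cause of these turns was not tested. The number of arrays, and the lack of absolute levels in centred values, limit what small differences of dim genes can show.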
